A study of Mus musculus with 26 samples.

Results

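The genes described here are 36 genes whose products form the ends of messenger RNAs, stop RNA polymerase II or take part in related cleavage of new transcripts. They were chosen by name and role, as 24 named factors of cleavage, polyadenylation and termination plus every symbol made of Ints and a number, which added 12 subunits of the Integrator complex. All 36 were present among the 20430 gene symbols of the RNA tables and among the 19941 symbols of the ribosome footprint tables. All 36 also passed the filter on low counts in every comparison. By role they comprised 7 genes of the CPSF core, 3 of CFIm, 4 of CstF, 2 of CFIIm, 3 of poly(A) tail synthesis and its accessory factors, 2 phosphatases, 3 termination factors and 12 Integrator subunits. A further pair of Integrator subunits, Ints11 and Ints14, stood in the tables under older symbols and are described separately.

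The 3′ end of a messenger RNA is made by a protein machine that reads the polyadenylation signal, cuts the transcript and adds a poly(A) tail. CPSF recognises the signal and holds the nuclease, CstF binds the sequence behind the cut, CFIm binds in front of it, and CFIIm, made of Pcf11 and Clp1, connects the cut to the release of the polymerase. After the cut the exonuclease Xrn2 degrades the RNA still attached to the polymerase, and the polymerase then leaves the template. Integrator is a separate complex with its own nuclease, known for cutting small nuclear RNAs and for ending transcription close to promoters. When termination fails, transcription continues past the gene end and makes downstream-of-gene transcripts (DoGs), which can run into the next gene (read-in).

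The samples were NIH3T3, an established fibroblast line from mouse embryos, in 26 libraries of 13 groups with 2 replicates each. Polyadenylated RNA was sequenced in 16 libraries. Heat groups were kept at 44 °C for 2 h or at 42 °C for 8 h and had a control of their own, while oxidative stress by H2O2 and osmotic stress by KCl, each for 2 h or 7 h, shared another control. Ribosome footprints, the messenger RNA pieces covered by ribosomes, were sequenced in 10 libraries of the H2O2, KCl and shared control groups. The labels give neither the dose of H2O2 or KCl nor whether replicates came from separate cultures, so p-values measure the spread between these libraries, which may be technical.

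RNA libraries held 24441877 to 45244430 expected counts and footprint libraries 1460751 to 5168537, the lowest being replicate 1 of H2O2 at 2 h. Most fibroblast markers were abundant, with a median of 2024.56 TPM for the collagen gene Col1a1 and 3227.38 TPM for vimentin (Vim). Col3a1, Fn1, Col1a2 and S100a4 had medians of 197.15 to 1155.47 TPM. Pdgfrb and Thy1 from the same list were lower, with medians of 78.86 and 12.56 TPM. The leukocyte marker Ptprc had a median of 0 TPM and a maximum of 0.05 TPM, the endothelial marker Cdh5 a median of 0 TPM, and the epithelial marker Cdh1 a median of 0.21 TPM. Krt18 and Cd68, from the epithelial and leukocyte lists, had medians of 14.24 and 9.95 TPM. TPM is a level corrected for transcript length and library depth. In bulk RNA of this kind, fewer cells expressing a gene and less RNA per cell cannot be told apart.

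Promoters are shown first for the 3 genes whose RNA rose at 2 h of both H2O2 and KCl among those changing most (Pcf11, Cstf3 and Rbbp6), and for Xrn2, which had the largest fall at 44 °C. Each sequence runs 5′ to 3′ on the strand of the gene, from 250 bases before to 50 bases after a start taken from RefSeq of GRCm38.p6. For Pcf11, Rbbp6 and Xrn2 that start lies inside the annotated gene, as given below. Capitals mark the CCAAT box (CCAAT), the GC box (GGGCGG) and an ETS-type motif (CCGGAAGT), each on either strand, where neighbouring matches can overlap.

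Pcf11: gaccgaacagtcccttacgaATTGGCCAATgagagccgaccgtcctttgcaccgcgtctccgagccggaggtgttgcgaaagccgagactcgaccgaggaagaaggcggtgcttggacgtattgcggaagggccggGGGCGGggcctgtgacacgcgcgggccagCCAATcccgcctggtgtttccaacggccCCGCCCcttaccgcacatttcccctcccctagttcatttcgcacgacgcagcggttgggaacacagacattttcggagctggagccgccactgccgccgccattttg

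Cstf3: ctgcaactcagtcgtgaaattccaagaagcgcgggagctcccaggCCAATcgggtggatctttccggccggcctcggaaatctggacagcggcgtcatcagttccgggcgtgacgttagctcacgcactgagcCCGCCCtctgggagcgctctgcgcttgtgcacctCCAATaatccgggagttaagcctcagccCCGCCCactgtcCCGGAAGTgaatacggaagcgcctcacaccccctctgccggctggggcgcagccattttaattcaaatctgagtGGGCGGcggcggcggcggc

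Rbbp6: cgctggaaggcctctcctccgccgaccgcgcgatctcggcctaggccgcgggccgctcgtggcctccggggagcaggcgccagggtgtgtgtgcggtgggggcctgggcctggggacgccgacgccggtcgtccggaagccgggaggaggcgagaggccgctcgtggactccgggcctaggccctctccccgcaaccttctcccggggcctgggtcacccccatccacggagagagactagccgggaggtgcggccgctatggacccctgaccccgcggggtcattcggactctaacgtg

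Xrn2: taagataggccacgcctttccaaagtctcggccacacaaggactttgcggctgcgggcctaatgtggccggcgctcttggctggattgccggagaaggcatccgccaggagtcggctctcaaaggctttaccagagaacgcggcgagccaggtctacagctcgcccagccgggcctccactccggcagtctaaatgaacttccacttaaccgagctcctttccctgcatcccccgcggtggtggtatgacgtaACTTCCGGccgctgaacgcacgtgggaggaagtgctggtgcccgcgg

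The Pcf11 window lies at chr7:92669863-92670162 on the minus strand, the Cstf3 window at chr2:104590234-104590533 on the plus strand, the Rbbp6 window at chr7:122970314-122970613 on the plus strand and the Xrn2 window at chr2:147012749-147013048 on the plus strand. Their GC content was 63.7%, 63.3%, 74.0% and 62.0% in that order. The Pcf11 window held 3 CCAAT matches and 2 GC boxes, the Cstf3 window 2 CCAAT matches, 3 GC boxes and 1 ETS-type match, the Xrn2 window 1 ETS-type match, and the Rbbp6 window none of the 3 motifs. The annotated Rbbp6 gene begins at 122969637, so its window lies wholly inside the gene and holds no bases before that point. The annotated Xrn2 and Pcf11 genes begin inside their windows, at 147012755 and 92670080. Most of each of these windows, with the ETS-type match of Xrn2, therefore lies inside the gene.

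Of the 36 genes, 29 had a promoter in the RefSeq table of 27025 windows of 300 bases. The windows of Rbbp6, Xrn2 and Pcf11, wholly or mostly inside the gene, are among them, and other windows were not checked for this. Their median GC content was 62.7%, against 52.7% over all windows. The ETS-type motif was in 20.7% of the 29 windows and in 4.0% of all windows, and an NRF1-type motif in 24.1% and 4.78%. The GC box was in 55.2% and 35.9%, the CCAAT box in 48.3% and 37.9%, and the core of the antioxidant response element (TGACNNNGC) in 27.6% and 12.5%. The cyclic AMP response element (TGACGTCA) was in 3.45% and 1.88%. No window of the 29 held the TATA box letters TATAAA or a pair of heat shock element units (GAANNTTC), which were in 14.2% and 7.95% of all windows. These are matches of letters on either strand in windows that differ in base composition, and binding was not measured.

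In the untreated control of the H2O2 and KCl experiment, the RNA levels of the 36 genes differed widely. Ppp1ca, a catalytic subunit of protein phosphatase 1, was highest at 912.85 and 880.64 TPM, followed by Pabpn1, the nuclear poly(A) binding protein, at 221.43 and 270.58 TPM. Nudt21, the small subunit of CFIm, stood at 206.52 and 198.26 TPM and Xrn2 at 114.13 and 106.91 TPM. Pcf11 was among the lowest, at 19.76 and 20.88 TPM, close to Ints2 at 18.87 and 19.27 TPM and Ints7 at 19.49 and 21.43 TPM. The lowest was the row named Ints13, at 0.95 and 1.16 TPM, whose reads were split with another row as described with Integrator. Summed over the 36 genes, the level was 2962 and 3003 TPM in this control and was lowest at 7 h of H2O2, at 2585 and 2578.8 TPM.

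The RNA tables were tested with edgeR's quasi-likelihood test with Benjamini-Hochberg adjustment over all genes, and a change is called where the adjusted p is under 0.05. At 44 °C 20 of the 36 genes rose and 6 fell, with a median log2 change of 0.21, where 71.0% of 12747 genes were called (35.4% higher and 35.7% lower). At 42 °C 22 rose and 6 fell, with a median of 0.16 and 63.6% of all genes called (31.7% higher and 31.9% lower). On the scale of log2(TPM + 1) the split at 42 °C was 9 higher and 11 lower, with the median of all genes at -0.16, so small rises there depend on the scaling.

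In the H2O2 and KCl experiment, early stands for 2 h of stress and late for 7 h. In early H2O2 7 of the 36 genes were higher and 10 lower, with 53.9% of 13256 genes called (27.3% higher and 26.5% lower). Early KCl had 8 higher and 8 lower, with 54.2% of all genes called (27.2% higher and 27.0% lower). Late H2O2 had 6 higher and 13 lower, with 70.5% called (39.4% higher and 31.1% lower). Late KCl had 22 higher and 4 lower, with 68.8% called (37.2% higher and 31.6% lower). The median log2 change of the 36 genes was 0.00 at both times of H2O2, 0.01 in early KCl and 0.29 in late KCl. Over all genes tested the medians were 0.00, 0.08, 0.00 and 0.04 for early and late H2O2 and early and late KCl. On log2(TPM + 1) the splits were 3 higher and 13 lower in late H2O2, 6 and 13 in early KCl, and 19 and 7 in late KCl. The share of the 36 genes called was 72.2% at 44 °C, 77.8% at 42 °C, 47.2% and 52.8% in early and late H2O2, and 44.4% and 72.2% in early and late KCl. At 42 °C 20 genes were called on log2(TPM + 1), and 22 to 24 with any 1 library left out. The H2O2 and KCl comparisons share their 2 control libraries, so their values stand side by side and are not independent of each other.

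**Figure D1:**
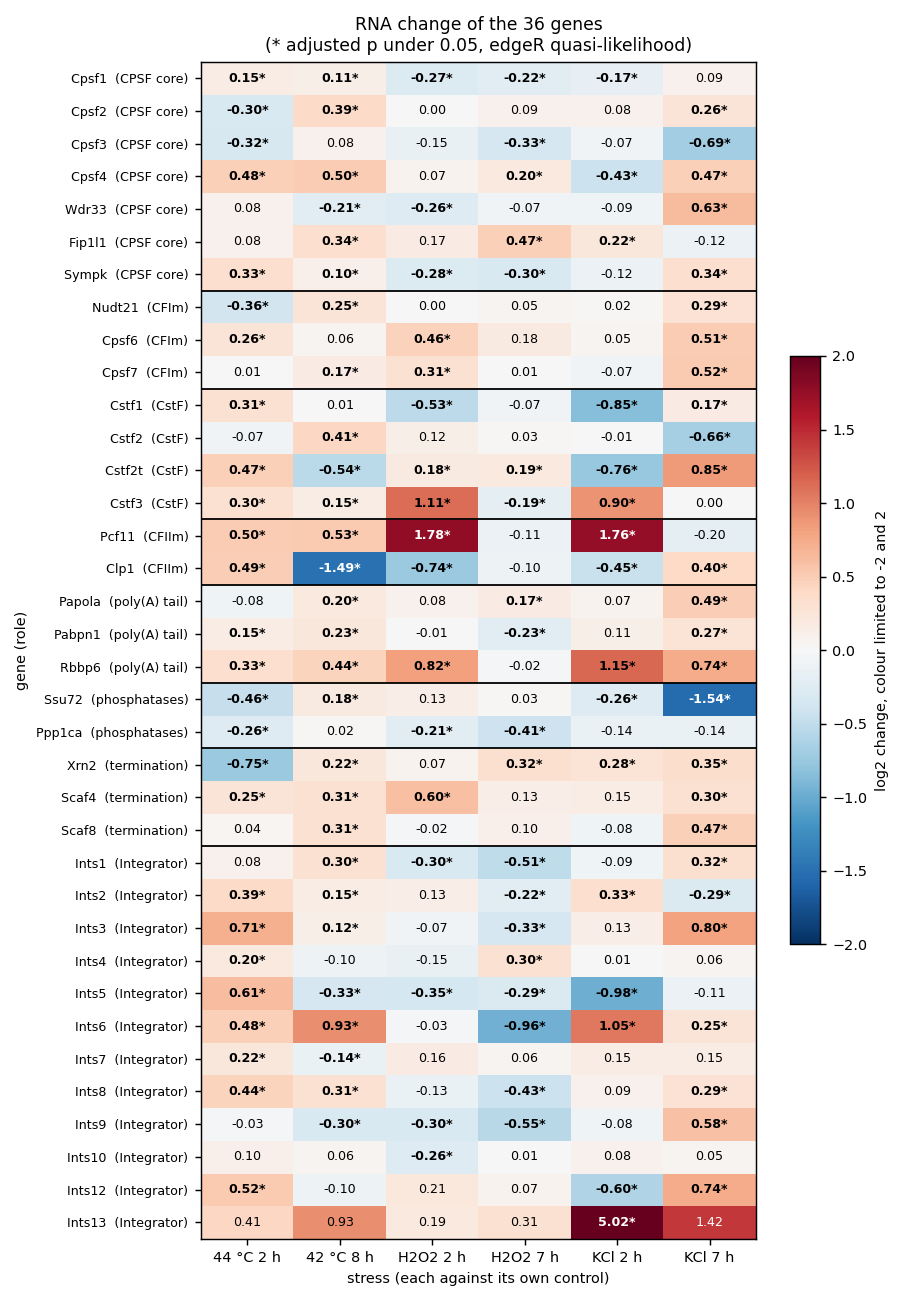
Log2 RNA change of each of the 36 genes (rows, grouped by role) in the 6 stresses against their own control (columns), with the fitted value printed and an asterisk where the adjusted p was under 0.05. Pcf11 reached 1.78 and 1.76 in early H2O2 and KCl, and the value of 5.02 for Ints13 rests on a row whose reads are split with an older symbol.

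Pcf11 had the largest RNA rise of these genes in early H2O2, and in early KCl when Ints13 is set aside. Pcf11 binds the tail of RNA polymerase II and is needed to release it after cleavage. Its RNA stood at 53.3 and 56.0 CPM (counts scaled to the TMM-normalized library size) in the shared control, at 175 and 199 CPM in early H2O2 and at 169 and 201 CPM in early KCl. Both stress groups lay above the control in both libraries, without overlap (78.1% and 75.3% of all genes did not overlap, in either direction). The log2 change was 1.78 ± 0.09 (SE, 3.43-fold, adjusted p = 1.8e-09, edgeR's quasi-likelihood test) for H2O2 and 1.76 ± 0.09 (3.39-fold, adjusted p = 2.11e-09) for KCl.

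By 7 h Pcf11 RNA was back at 46.9 and 54.8 CPM in H2O2 and at 47.9 and 46.9 CPM in KCl, with changes against control of -0.11 and -0.20 that were not called. The change from 2 h to 7 h was -1.88 in H2O2 and -1.97 in KCl on the log2 scale, both called. In heat, Pcf11 stood at 71.9 and 73.9 CPM at 44 °C and at 75.2 and 74.3 CPM at 42 °C, against 53.1 and 50.1 CPM in the heat control. The rises were 0.50 and 0.53 on the log2 scale, smaller than at 2 h of the chemical stresses and called in both heats.

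Clp1, the RNA kinase that pairs with Pcf11 in CFIIm, fell at 2 h of both chemical stresses, where Pcf11 rose. It stood at 23.4 and 21.3 CPM in the shared control, 13.4 CPM in both libraries in early H2O2, and 17.7 and 15.2 CPM in early KCl. It fell by 0.74 and 0.45 on the log2 scale there. In heat it parted by regime, at 23.8 and 21.4 CPM at 44 °C and 5.61 and 5.82 CPM at 42 °C against 16.6 and 15.5 CPM in the control, so that it rose by 0.49 and fell by 1.49 on the log2 scale. The fall at 42 °C had an adjusted p of 8.01e-09 (edgeR) and was the largest of the 36 genes there.

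**Figure D2:**
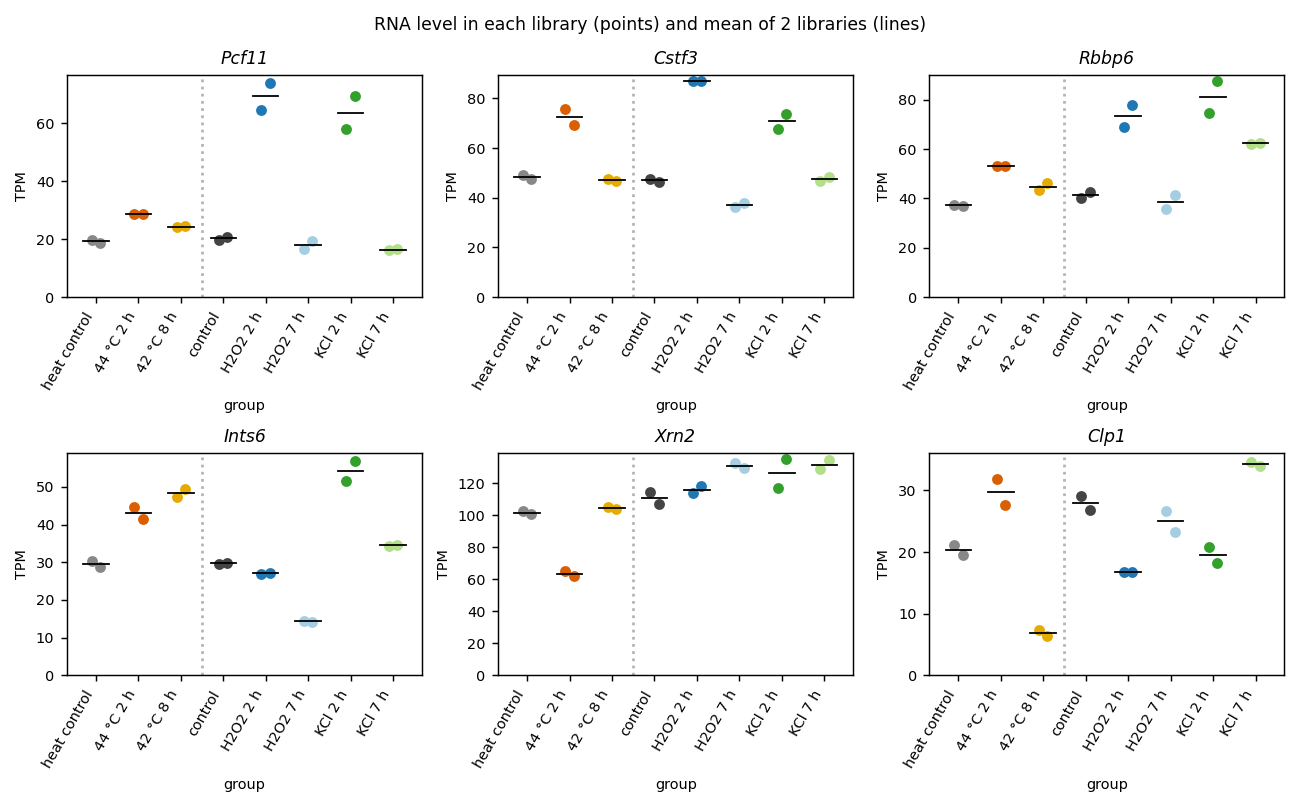
RNA level in TPM of Pcf11, Cstf3, Rbbp6, Ints6, Xrn2 and Clp1 in each library (points, 2 in each of 8 groups), with the group mean as a line and a dotted line between the heat experiment and the H2O2 and KCl experiment. Pcf11 averaged 69.36 TPM in early H2O2 and 63.66 TPM in early KCl, against 20.32 TPM in their control.

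The 4 CstF genes moved apart from each other. Cstf3, the scaffold subunit on which CstF dimerises, stood at 47.5 and 46.3 CPM in the control, 100 and 103 CPM in early H2O2, and 84.4 and 90.9 CPM in early KCl. Both groups were above both control libraries, where 78.1% and 75.3% of all genes did not overlap the control. For Cstf3 the log2 changes were 1.11 ± 0.061 (SE, adjusted p = 3.82e-09, edgeR) and 0.90. At 7 h it was at 39.7 and 42.8 CPM in H2O2, below the control, and at 46.4 and 47.3 CPM in KCl.

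Cstf1, the subunit with WD repeats, fell at 2 h of both chemical stresses, where Cstf3 rose. It stood at 56.3 and 57.5 CPM in the control, 38.2 and 40.6 CPM in early H2O2 and 31.1 and 32.1 CPM in early KCl, which are log2 changes of -0.53 and -0.85. It was back at 56.7 and 51.7 CPM in late H2O2 and at 62.1 and 66.1 CPM in late KCl, where its rise of 0.17 kept its call in 4 of 11 alternatives (0.12 to 0.22).

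Cstf2 and Cstf2t encode 2 forms of the RNA binding subunit, the second from a gene without introns, and reads of such close relatives may be divided between them with error. Cstf2t fell in early KCl, from 52.8 and 55.0 CPM in the control to 31.8 and 31.7 CPM, and rose to 99.1 and 94.6 CPM in late KCl. The log2 changes were -0.76 and 0.85. Cstf2 went the other way in late KCl, from 96.4 and 94.0 CPM to 62.8 and 57.3 CPM, a log2 change of -0.66. In heat, Cstf2t was at 102 CPM in both libraries at 44 °C and at 50.6 and 50.4 CPM at 42 °C, on either side of the control at 74.9 and 72.3 CPM.

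Among the factors of the poly(A) tail, Rbbp6 rose in 5 of the 6 stresses. Rbbp6 is a large ubiquitin ligase that activates cleavage. It stood at 102 and 109 CPM in the control, 175 and 197 CPM in early H2O2, 216 and 252 CPM in early KCl and 177 and 175 CPM in late KCl. The log2 changes were 0.82, 1.15 and 0.74, with all stress libraries above both controls (78.1%, 75.3% and 83.4% of all genes did not overlap there). In late H2O2 it was at 96.7 and 111 CPM and overlapped the control (log2 change -0.02). In heat the rises were 0.33 at 44 °C and 0.44 at 42 °C.

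Papola, the main poly(A) polymerase, stood at 167 and 179 CPM in the control and was highest among the chemical stresses in late KCl, at 245 and 240 CPM (log2 change 0.49). At 2 h of both stresses its change was not called, at 0.08 and 0.07. Pabpn1, which sets the length of new tails, changed by no more than 0.27 in either direction in any stress.

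The log2 changes of the 7 CPSF core genes lay between -0.28 and 0.17 in early H2O2, where none rose and 3 fell (Cpsf1, Wdr33 and Sympk), and between -0.43 and 0.22 in early KCl. The largest fall was Cpsf3, the nuclease that makes the cut, in late KCl, from 63.8 and 61.8 CPM in the control to 40.9 and 37.0 CPM (-0.69, adjusted p = 5.7e-07, edgeR). Wdr33, which contacts the polyadenylation signal, rose at the same time by 0.63, from 107 and 106 CPM to 162 and 167 CPM. Fip1l1, which binds the poly(A) polymerase, had the largest rise of the 36 genes in late H2O2, from 118 and 125 CPM to 169 and 166 CPM (0.47).

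Cpsf4, a zinc finger subunit that also reads the signal, rose in both heats by 0.48 and 0.50, fell in early KCl by 0.43 and rose in late KCl by 0.47. Its libraries stood at 35.6 and 41.6 CPM in the shared control, 29.8 and 27.4 CPM in early KCl and 52.6 and 54.2 CPM at 7 h. All 3 CFIm genes rose in late KCl, by 0.29 for Nudt21, 0.51 for Cpsf6 and 0.52 for Cpsf7. Nudt21, known for steering the choice between polyadenylation sites, fell at 44 °C by 0.36, with 71.2 and 69.5 CPM against 91.2 and 89.6 CPM in the heat control.

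Ssu72, a phosphatase of the polymerase tail, fell in late KCl more than any other of the 36 genes. It stood at 59.3 and 57.6 CPM in the control, 48.8 and 48.7 CPM in early KCl and 20.3 and 19.8 CPM at 7 h. The log2 change at 7 h was -1.54 ± 0.07 (SE, adjusted p = 4.04e-10, edgeR). At 44 °C it also fell, by 0.46, while in late H2O2 it stood at 62.4 and 56.8 CPM, overlapping the control. Ppp1ca fell at 44 °C (-0.26) and in early (-0.21) and late H2O2 (-0.41). Reads of Ppp1ca may be divided with error among its close relatives Ppp1cb and Ppp1cc.

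Xrn2, the exonuclease of termination, fell at 44 °C and in none of the other 5 stresses. It stood at 93.1 and 90.7 CPM at 44 °C against 156 and 153 CPM in the heat control, a log2 change of -0.75 ± 0.042 (SE, adjusted p = 1.65e-09, edgeR). At 42 °C it was at 183 and 178 CPM, above the control, and the difference between the heats was 0.97. In the chemical stresses it rose in late H2O2 (0.32), early KCl (0.28) and late KCl (0.35), and was at 174 and 179 CPM in early H2O2 against 174 and 162 CPM in the control. Scaf4 and Scaf8 bind the polymerase tail and are known for preventing early cleavage. Scaf4 rose in early H2O2 from 65.2 and 75.4 CPM to 104 and 109 CPM (0.60), where Scaf8 changed by -0.02.

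The 12 Integrator subunits rose more often than they fell at 44 °C, with 8 higher and none lower, and fell more often in late H2O2, with 1 higher and 7 lower. The counts were 5 higher and 3 lower at 42 °C, none and 4 in early H2O2, 3 and 2 in early KCl and 6 and 1 in late KCl. Of all genes 35.4% were higher and 35.7% lower at 44 °C, and 39.4% and 31.1% in late H2O2. The shares called were 66.7% at 44 °C, at 42 °C and in late H2O2, against 71.0%, 63.6% and 70.5% of all genes. They were 33.3% in early H2O2, 41.7% in early KCl and 58.3% in late KCl, against 53.9%, 54.2% and 68.8%. Ints3, which also belongs to the SOSS complex that binds single-stranded DNA, was at 249 and 245 CPM at 44 °C against 149 and 154 CPM in the heat control (0.71, adjusted p = 1.9e-09, edgeR), and Ints5 at 105 and 107 CPM against 67.8 and 71.1 CPM (0.61). Ints12, at 46.1 and 46.4 CPM against 32.7 and 31.9 CPM, rose by 0.52.

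Ints6, which links Integrator to the phosphatase PP2A, had the widest range among the subunits other than Ints13. It was at 58.2 and 57.9 CPM in the shared control, 113 and 127 CPM in early KCl and 30.0 and 29.9 CPM in late H2O2. In early H2O2 it was at 55.9 and 57.8 CPM, below both control libraries by a small margin. The log2 changes were 1.05, -0.96 and -0.03, and at 42 °C it rose by 0.93 ± 0.046 (SE, adjusted p = 9.53e-10, edgeR), from 58.7 and 55.8 CPM to 109 CPM in both libraries. Ints6 was lower in H2O2 than in KCl both early (-1.08) and late (-1.21).

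Ints5 fell in early KCl from 71.5 and 71.9 CPM to 37.5 and 35.4 CPM, a log2 change of -0.98, and the authors called read-in into it, described with the gene pairs. In late H2O2 Ints9, a partner of the nuclease subunit, fell from 45 and 41.3 CPM to 30.6 and 28.2 CPM (-0.55), and Ints1, the largest scaffold subunit, from 178 and 202 CPM to 133 CPM in both libraries (-0.51). Ints4, which joins the nuclease module, rose there from 41.6 and 41.8 CPM to 50.4 and 52.1 CPM (0.30).

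The row named Ints13 cannot be read alone, because the tables also hold the same gene as Asun, its older symbol, and the deposited expected counts were divided between these rows in an uneven way. In early KCl the Ints13 row held 344 and 1941 counts and the Asun row 1783 and 414, while the sums were 2127 and 2355. In the control the Ints13 row held 62 and 59 counts of summed 2543 and 1952. The row alone gave a log2 change of 5.02 in early KCl, and the sum gave 0.80 (adjusted p = 2.91e-08, edgeR). Without this row 7 genes rose in early KCl. The sum was also called higher in late KCl (1.10, adjusted p = 4.56e-10, edgeR), early H2O2 (0.47), at 42 °C (0.32) and at 44 °C (0.17). With the sum in place of the row, the Integrator counts were 9 higher and none lower at 44 °C, 6 and 3 at 42 °C, 1 and 4 in early H2O2, 1 and 7 in late H2O2, 3 and 2 in early KCl and 7 and 1 in late KCl. Ints11, the nuclease of Integrator, was listed as Cpsf3l and rose at 44 °C (0.12) and fell in late KCl (-0.24), and Ints14, listed as Vwa9, was called in 4 of the 6 stresses with changes of 0.25, -0.17, -0.33 and 0.41 at 44 °C, 42 °C, early KCl and late KCl.

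The 2 chemical stresses were compared directly at each time. At 2 h 10 of the 36 genes were higher and 13 lower in H2O2 than in KCl, with 51.3% of all genes called (27.0% higher and 24.2% lower). This count was 11 and 3 on log2(TPM + 1), and 10 and 5 without replicate 1 of H2O2 at 2 h. The difference of Pcf11 was 0.02 and was not called (adjusted p = 0.89, edgeR), while Cstf3 was higher in H2O2 by 0.21 and Rbbp6 lower by 0.33. At 7 h 5 genes were higher and 25 lower in H2O2, with 78.4% of all genes called (41.0% higher and 37.4% lower). The 5 higher genes were Cpsf3, Fip1l1, Cstf2, Ssu72 and Ints4, with Ssu72 at 1.57. The largest falls against KCl, after Ints6, were Ints3 and Ints9, each at -1.13.

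From 2 h to 7 h of H2O2 7 genes rose and 15 fell, where 73.4% of all genes were called (37.3% higher and 36.1% lower). Over the same time in KCl 19 rose and 10 fell, where 68.8% were called (35.1% higher and 33.7% lower). The fall of Pcf11, Cstf3, Rbbp6 and Ints6 over this time was called in both stresses. Between the heats, 14 genes were higher and 15 lower at 42 °C for 8 h than at 44 °C for 2 h, where 75.1% of all genes were called (37.9% higher and 37.2% lower). On log2(TPM + 1) this split was 7 and 22. Clp1 had the largest difference, at -1.99.

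Footprints were compared next, since they measure RNA that is being translated. Pcf11 held 39.4 and 41.2 footprint CPM in the control, 70.7 and 96.2 CPM in early H2O2, and 106 and 128 CPM in early KCl. Cstf3 held 53.3 and 53.9 CPM, then 92.0 and 160 CPM, and 176 and 138 CPM. For both genes all stress libraries lay above both controls at 2 h. Of all genes, 45.1% in early H2O2 and 49.8% in early KCl did not overlap the control in footprints, in either direction. The footprint log2 changes were 1.07 and 1.54 for Pcf11 and 1.26 and 1.55 for Cstf3, for H2O2 and KCl in that order.

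In early H2O2 these 2 were the members called of 36, where 1.91% of 10545 genes were called (1.14% higher and 0.768% lower). Their adjusted p was 0.021 and 0.0272 (edgeR), and it rose to between 0.107 and 0.147 without replicate 2 of H2O2 or without either control library. Without replicate 2, which leaves the shallowest library, the changes were 0.80 for Pcf11 and 0.77 for Cstf3. In early KCl 4 members were called higher and none lower (1.79% and 5.06% of all genes, 6.86% either way), with Rbbp6 at 0.91 and Ints6 at 0.89 beside Pcf11 and Cstf3. The calls of Pcf11 and Cstf3 in early KCl held in each of 11 alternative analyses. Rbbp6 lost its call when any 1 of the 4 libraries was left out (changes of 0.80 to 1.09), and Ints6 without control replicate 1 (0.74) or either KCl library (0.89 and 0.90).

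In late H2O2 1 member was higher and 2 were lower in footprints (17.2% and 10.6% of all genes, 27.7% either way). Ints6 held 21.4 and 17.0 CPM against 37.9 and 50.8 CPM in the control, a log2 change of -1.21 that held in each of the 11 alternatives. Fip1l1 (0.57) and Ints8 (-0.61) lost their call when any 1 of the 4 libraries was left out, with changes of 0.36 to 0.67 and of -0.82 to -0.50. In late KCl 7 were higher and 1 lower (10.5% and 9.83% of all genes, 20.4% either way). The higher ones were Clp1 and Ints12, both at 1.17, Rbbp6 at 1.02, Cstf1 at 0.98, Wdr33 at 0.90, Cstf2t at 0.70 and Ints13, whose change was 1.37 in its row and 0.96 with Asun added.

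Ssu72 was the member with lower footprints in late KCl, at 19.2 and 34.6 CPM against 59.2 and 53.6 CPM (-1.05), from 51 and 122 counts. Its call was lost without replicate 1 of KCl (-0.70) or without either control library (-0.97 and -1.12). Cstf2t lost its call without control replicate 1 (0.57) and without either KCl library (0.74 and 0.67), and Rbbp6 without control replicate 1 (0.86) and KCl replicate 2 (0.91). Clp1, Cstf1 and Ints12 kept theirs in each alternative.

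**Figure D3:**
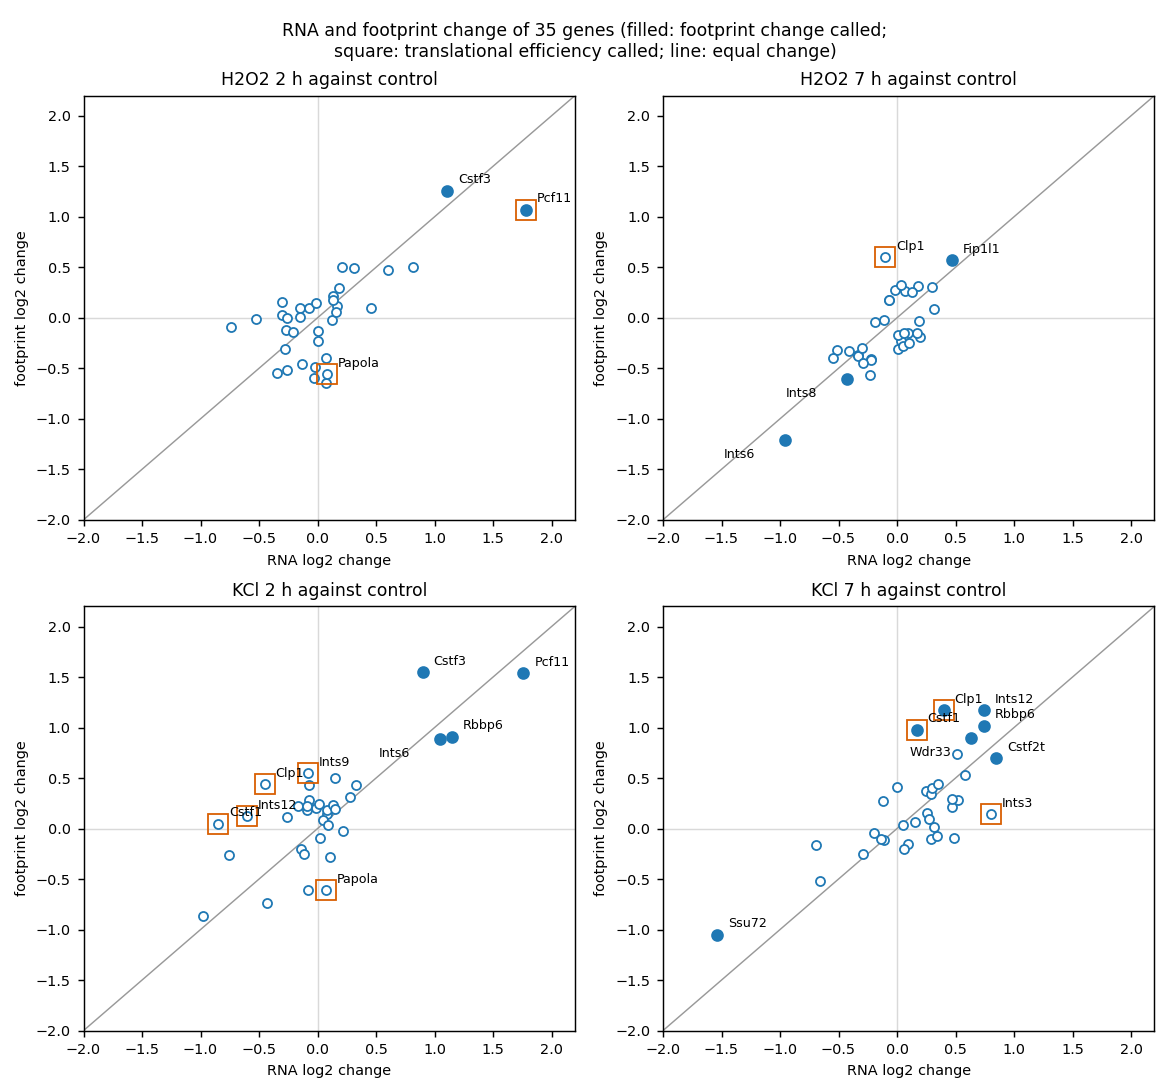
Log2 change in RNA (horizontal) and in footprints (vertical) of 35 genes, Ints13 left out, in the 4 stresses against the shared control, with filled points where the footprint change was called, squares where translational efficiency was called and a line of equal change. Pcf11 and Cstf3 stand at the upper right in both 2 h panels, and Ssu72 at the lower left in late KCl.

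Translational efficiency, the footprint change beyond the RNA change, was tested as an interaction. In early KCl 4 members were higher and 2 lower (3.58% and 9.18% of 10480 genes, 12.8% either way). Cstf1 was higher by 0.89 ± 0.18 (SE, adjusted p = 0.00324, edgeR), a call kept in each of 16 alternatives. Its RNA had fallen, and its footprints stood at 61.7 and 78.6 CPM against 63.8 and 71.4 CPM in the control. Clp1 also had lower RNA, with footprints of 25.8 and 30.2 CPM against 20.8 and 20.6 CPM (0.44, not called) and an efficiency higher by 0.87. It lost its call without KCl footprint replicate 2 (0.76).

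Ints12 (0.71) and Ints9 (0.62) were called higher in early KCl but kept their calls in 6 and 5 of the 16 alternatives. Both lost them without either control RNA library, KCl RNA replicate 2 or control footprint replicate 1, with changes of 0.55 to 0.82 and 0.54 to 0.69. Ints12 also lost it without control footprint replicate 2 (0.62) or KCl footprint replicate 1 (0.53), and Ints9 without KCl RNA replicate 1 (0.71) or KCl footprint replicate 2 (0.51). Papola was lower by 0.69, with footprints of 70.8 and 61.2 CPM against 100 and 101 CPM and an RNA change of 0.07 that was not called. Its call was lost without control RNA replicate 1 (-0.64), KCl RNA replicate 2 (-0.67) or KCl footprint replicate 2 (-0.59). Ints13 was at -5.09 in its row and at -0.80 with Asun added (adjusted p = 0.035, edgeR).

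In late KCl Cstf1 (0.84) and Clp1 (0.80) were again higher and Ints3 was lower (-0.63), where 1.69% and 3.88% of all genes were called in those directions and 5.57% either way. Cstf1 lost its call without KCl RNA replicate 1 (0.80, adjusted p = 0.0538), and Clp1 without control RNA replicate 1, KCl RNA replicate 2, control footprint replicate 2 or KCl footprint replicate 2 (0.73 to 0.80). Ints3 kept its call in 5 of 16 alternatives and lost it without any 1 of the 4 RNA libraries, control footprint replicate 2 or either KCl footprint library (-0.67 to -0.45). In early H2O2 none was higher and 2 were lower (3.98% and 7.46% of all genes, 11.4% either way), Pcf11 by 0.72 and Papola by 0.66. Pcf11 had RNA 3.43-fold higher and a smaller rise in footprints. These calls were kept in 7 and 8 of 16 alternatives, within ranges of -1.02 to -0.56 and -0.86 to -0.55. Both were lost without RNA replicate 2 of H2O2, footprint replicate 1 of H2O2 or any 1 of the 4 control libraries. In late H2O2 Clp1 alone was called, higher by 0.70, with 4.69% of all genes called higher, 4.57% lower and 9.27% either way, and kept its call in 9 of 16. It was lost without RNA replicate 2 of H2O2, control RNA replicate 1 or any 1 of the 4 footprint libraries (0.64 to 0.72).

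The levels were then set beside the order of the groups in readthrough. The deposited tables give a true or false DoG call and a read-in call, as the authors made them, for 6399 pairs of neighbouring genes, each pair having a DoG call in at least 1 of the 16 RNA libraries. DoG calls numbered 2202 and 2286 in early H2O2, 2042 and 2220 in early KCl, 2095 and 2094 at 44 °C and 2049 and 1949 at 42 °C. The heat control had 1785 and 1693, the shared control 1551 and 1615, late KCl 1520 and 1498, and late H2O2 1243 and 1359. The 2 h chemical stresses overlapped each other, and early KCl overlapped both heats. The other neighbours in this order did not overlap. Library depth was 30541457 and 33106958 counts in early H2O2 and 45244430 and 35775040 in the shared control. The groups with fewest DoG calls held 31669870 and 24606586 counts (late H2O2) and 30094091 and 24441877 (late KCl). Early KCl, with many DoG calls, held 25207561 and 26939393 counts, and the part of depth in the order was not tested.

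Read-in calls were most frequent in early KCl, with 174 and 189, followed by 161 and 156 in early H2O2, 95 and 112 at 44 °C and 83 and 84 at 42 °C. All other groups had 35 to 65.

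In TPM, Pcf11 had its 4 highest mean levels in the 4 groups with most DoG calls and in the same order. The order within them rests on that scale: in CPM the means were 187 in early H2O2, 185 in early KCl, 72.9 at 44 °C and 74.8 at 42 °C, so that the heats change places, and neither the early stresses nor the heats were called different from each other. In TPM the means were 69.36 TPM in early H2O2, 63.66 TPM in early KCl, 28.62 TPM at 44 °C and 24.31 TPM at 42 °C. They were 20.32 TPM in the shared control, 19.23 TPM in the heat control, 17.9 TPM in late H2O2 and 16.4 TPM in late KCl. Among these lower groups the order differed from that of DoG calls. Read-in calls had another order too, with early KCl ahead of early H2O2. Of 35 members at 1 TPM or more in each group Pcf11 was the one (2.86%) whose 4 highest groups were these, against 71 of 10439 genes (0.68%), and 7 genes of all (0.0671%) had the same order. This is a description over 8 groups that share 2 controls.

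Other members followed other orders. Cstf3 was highest in early H2O2 (86.92 TPM), then at 44 °C (72.4 TPM) and in early KCl (70.7 TPM), with 47.17 TPM at 42 °C. Rbbp6 was highest in early KCl (81.01 TPM) and early H2O2 (73.28 TPM), then in late KCl (62.28 TPM). Xrn2 was lowest at 44 °C (63.4 TPM), the third in the order of DoG calls, and highest in late KCl (131.57 TPM), the seventh in that order. By group, 13 of the 36 genes had their highest mean in late KCl and 10 at 44 °C, and 11 had their lowest in late H2O2. These counts rank TPM across both experiments and include the Ints13 row. The same counts were not made over all genes, so they cannot be read as particular to the 36.

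**Figure D4:**
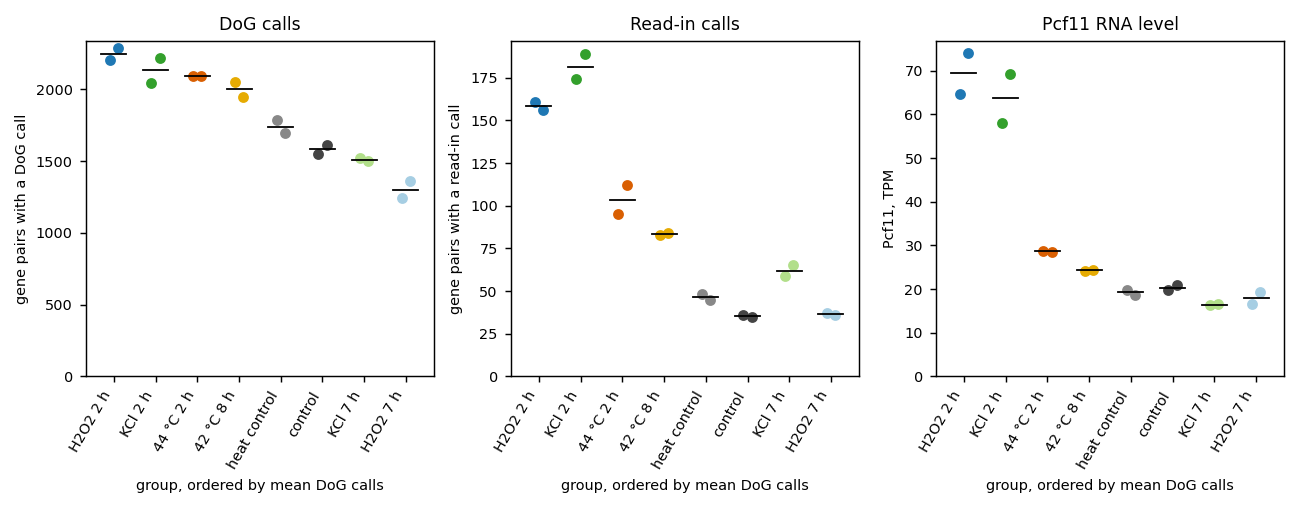
DoG calls, read-in calls and the Pcf11 level in TPM in each RNA library (points, with group means as lines), with groups ordered by mean DoG calls. Pcf11 averages 69.36 and 63.66 TPM in the early stresses, 28.62 and 24.31 TPM in the heats, which change places in CPM, and 16.4 to 20.32 TPM in the other 4 groups.

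The genes themselves can read through or be read into. Among the listed pairs, 24 of the 36 stand upstream, 11 downstream and 9 in no pair, and since every pair listed has a DoG call somewhere, all 24 have one by construction. Among the 24, DoG calls were in 8 and 10 in early H2O2, 8 in both libraries in early KCl, 7 and 11 at 44 °C, 9 and 11 at 42 °C, 8 and 10 in the shared control and 4 and 1 in late H2O2. As shares these ranged from 4.17% to 45.8% by library, where 19.4% to 35.7% of all pairs were called. Cstf3 had a DoG call towards Ccdc73 in 12 of 16 libraries and Wdr33 towards Lims2 in 12. Pcf11 had one towards Ankrd42 in 8, among them both libraries in early H2O2 and both in early KCl.

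Read-in calls touched 3 of the 36 genes, Ints3 as source, Pabpn1 as recipient and Ints5 as both. Ints5 received read-in from Lbhd1 in 16 of 16 libraries. The authors' read-in estimate, a ratio deposited without its formula, was 0.0515 and 0.0876 in the shared control, 0.201 and 0.158 in early H2O2, and 0.21 and 0.236 in early KCl. The heat control had 0.0803 and 0.0892, the 44 °C libraries 0.171 and 0.201 and those of 42 °C 0.162 and 0.216. Late H2O2 had 0.0894 and 0.103 and late KCl 0.127 and 0.149. In each stress every library was above every control library of both experiments, in late H2O2 by a small margin (0.0894 against 0.0892). The level of Ints5 itself fell in early KCl and rose at 44 °C, and what part of its counts came from Lbhd1 was not tested.

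Pabpn1 received read-in from Bcl2l2 in 8 libraries, among them both of the unstressed heat control. The estimates were highest at 44 °C, at 0.0493 and 0.0542 against 0.0118 and 0.0159 in the heat control. In late KCl they were 0.0348 and 0.0437, against 0.0116 and 0.0113 in the shared control. In early KCl, with many more read-in calls in the whole table, its estimates were 0.015 and 0.0124 and no read-in was called. Ints3 was the source for Slc27a3 in 10 libraries, with estimates of 0.403 and 0.497 at 44 °C against 0.116 and 0.133 in the heat control, and of 0.474 and 0.449 in late KCl against 0.0702 and 0.077 in the shared control. Those were also the stresses with the largest rises of Ints3 RNA, 0.71 and 0.80, though the late KCl library at 0.449 had no read-in call. The estimates were 0.376 and 0.308 in early KCl and 0.157 and 0.243 in early H2O2, where the Ints3 RNA change was not called. They were 0.225 and 0.261 at 42 °C (RNA change 0.12) and 0.0265 and 0.0473 in late H2O2 (-0.33). A link between the estimate and Ints3 RNA was not tested. Ints5 was the source for Ganab in 1 library, of 44 °C.

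**Figure D5:**
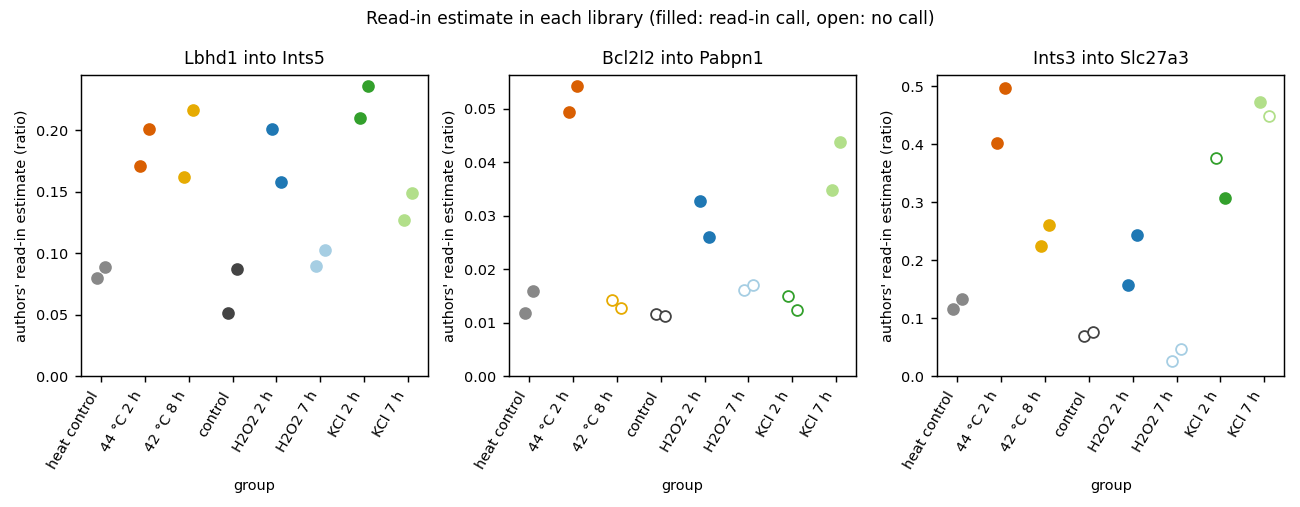
The authors' read-in estimate (a ratio) in each RNA library for Lbhd1 into Ints5, Bcl2l2 into Pabpn1 and Ints3 into Slc27a3, filled where read-in was called. Lbhd1 into Ints5 is filled in all 16 libraries, and Bcl2l2 into Pabpn1 is highest at 44 °C.

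Other genes of the same pathways were taken from lists by role. For each list the share called stands beside that of all genes, which was 71.0% at 44 °C, 63.6% at 42 °C, 53.9% and 70.5% in early and late H2O2, and 54.2% and 68.8% in early and late KCl. The shares of all genes by direction are those given above for each stress. Of 16 regulators of the polymerase tail and of PP1, 10 rose and 3 fell at 44 °C, 6 and 3 at 42 °C, 6 and 2 in early H2O2, 5 and 5 in late H2O2, 6 and 6 in early KCl and 11 and 4 in late KCl. The shares called were 81.2% and 56.2% in the heats, 50% and 62.5% in H2O2, and 75.0% and 93.8% in KCl, in the same order. Ppp1r10, which encodes the PP1 partner PNUTS, known for slowing the polymerase behind polyadenylation sites, stood at 102 CPM in both control libraries, 322 and 353 CPM in early H2O2 and 310 and 286 CPM in early KCl. The log2 changes were 1.73 and 1.55, and by 7 h it was at 91.0 and 89.8 CPM in H2O2 and 81.1 and 76.6 CPM in KCl, below the control. In heat it rose at 44 °C (0.64) and fell at 42 °C (-0.62). Papolg, a relative of Papola, fell in early KCl from 20.9 and 22.2 CPM to 6.58 and 6.55 CPM (-1.71).

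Of 8 partners of Integrator, 4 rose and 3 fell at 44 °C, 4 and 1 at 42 °C, 1 and 3 in early H2O2, 2 and 4 in early KCl, 5 and 2 in late H2O2 and 3 and 2 in late KCl. Of these 8 genes 87.5% and 62.5% were called in the heats, 50% and 87.5% in H2O2, and 75.0% and 62.5% in KCl. Nabp1, a single-stranded DNA binding protein of the SOSS complex, stood at 14.7 and 14.4 CPM in the control and at 48.2 and 52.4 CPM and 46.3 and 51.8 CPM in early and late H2O2 (1.79 and 1.75). Its RNA also rose at 44 °C (0.98), at 42 °C (0.59) and in late KCl (0.79), and stood at 22.8 and 31.6 CPM in early KCl. The translational efficiency of Nabp1 was lower by 1.78 and 1.13 in early and late H2O2, and by 2.16 and 1.18 in early and late KCl. It rests on 14 to 87 footprint counts a library. Inip (-1.36) and Wdr73 (-1.32) fell in early KCl, and Wdr73 rose in late H2O2 (1.06).

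Of 17 genes of pausing and elongation, 10 rose and 4 fell at 44 °C, 5 and 3 at 42 °C, 4 and 4 in early H2O2, 6 and 3 in late H2O2, 4 and 5 in early KCl and 11 and 2 in late KCl. Of these 17 genes 82.4% and 47.1% were called in the heats, 47.1% and 52.9% in H2O2, and 52.9% and 76.5% in KCl. Ccnt1, a cyclin of the kinase that releases paused polymerase, rose in all 6 stresses, by 0.91 at 44 °C, 0.53 at 42 °C, 0.98 and 0.38 in early and late H2O2, and 1.22 and 1.33 in early and late KCl, while its relative Ccnt2 fell in early KCl (-1.58). Leo1, of the PAF complex, rose in late H2O2 from 41.3 and 45.7 CPM to 127 and 137 CPM (1.60). A list of 10 proteins found in the U1 snRNP includes Sm proteins that other snRNPs share, such as Snrpd2 and Snrpf. Of the 10, 9 rose and none fell at 42 °C, from 0.15 for Snrpd2 to 0.54 for Snrpf, on the TMM scale. In TPM Snrpd2 overlapped the heat control, at 374.7 and 381.18 against 369.18 and 407.87 TPM. Snrpb stayed above it, at 418.72 and 401.95 against 338.78 and 362.37 TPM, so the smallest rise depends on the scaling. In late KCl 1 rose and 8 fell, with Snrpc lowest (-0.65), and 1 and 4 did at 44 °C, 1 and 3 in early H2O2, 6 and 1 in late H2O2 and 2 and 2 in early KCl. The shares of this list called were 50% and 90.0% in the heats, 40.0% and 70.0% in H2O2, and 40.0% and 90.0% in KCl. Of 7 factors of histone 3′ ends 6 rose and none fell at 44 °C, 3 and 2 did at 42 °C, none and 2 in early H2O2, 3 and 2 in late H2O2, 1 and 4 in early KCl, and 4 and 2 in late KCl. The largest falls in early KCl were Zfp473 (-1.81) and Lsm10 (-1.25). Zfp473 was near the floor, at 0.329 and 0.318 CPM against 1.22 and 1.05 CPM in the control. The translational efficiency of Lsm10 was higher in early KCl by 1.61. Of these 7 genes 85.7% and 71.4% were called in the heats, 28.6% and 71.4% in H2O2, and 71.4% and 85.7% in KCl.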

How the data were processed

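RNA and footprint tables hold expected counts and TPM per gene and library, as deposited by the authors. The submitters' processing notes name STAR, RSEM, Bowtie and mm10, with no role or version. The counts were whole numbers and were used unchanged. The DoG and read-in calls, and the read-in estimate, a ratio deposited without its formula, are the authors' deposited values. Another 12 columns fitted no sample in the labels and were left aside.

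Counts were tested with edgeR 4.0.16 in R 4.3.3 (quasi-likelihood test, TMM normalization, the default filterByExpr filter, Benjamini-Hochberg adjustment over all genes tested, threshold 0.05). The 6 heat RNA libraries, the 10 H2O2 and KCl RNA libraries and the 10 footprint libraries were each fitted together. Translational efficiency was the interaction of stress and kind of library over 20 libraries. Alternatives were DESeq2 1.42.0, relative log expression size factors, no filter, the replicate number as a block, limma 3.58.1 on log2(TPM + 1), older symbols summed, only the groups compared, limma voom (efficiency only), and leaving out each library. The fits were tested on simulated data.

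Per-library values are given for members among the 3 largest called rises or falls in any stress against control in RNA, or called in translational efficiency, and for others of the 36 where a role is described. Related genes and motifs come from lists by role. The members and lists were chosen with earlier results of these data known. Values are per gene, so isoforms were not separated, and reads of overlapping or antisense genes may be divided with error. The result for 1 gene pair is not reported here.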

Additional observations from a re-analysis of the deposited data

Results flagged for a closer look

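For 23 RNA changes the effects of a pair of stresses, or of a pair of times, had opposite signs against control, each called on its own, and the difference between them was called too (edgeR's quasi-likelihood test with Benjamini-Hochberg adjustment). All values are log2 differences over 2 libraries a group. All 23 differences were called the same way under each of the 11 alternatives, but the opposite signs are less firm. For 14 of the 23 both effects against control kept their own call under each alternative, and for 9 at least 1 effect lost it. The effects that lost it were those of Cstf1 in late KCl (kept in 4 of 11), Ints7 (7), Ssu72 (8, with the sign turned on log2(TPM + 1)), Nudt21 (10) and Xrn2 (10) at 42 °C, Pabpn1 in late KCl (8) and late H2O2 (9), Cstf2t in early H2O2 (9), Ints2 in early (9) and late KCl (10), and Cstf3 in late H2O2 (10). Early stands for 2 h and late for 7 h of stress.

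At 2 h the difference between H2O2 and KCl was 0.95 for Cstf2t, which rose in H2O2 (0.18) and fell in KCl (-0.76). At 7 h 7 genes fell in H2O2 and rose in KCl. The differences were -1.21 for Ints6, -1.13 for Ints3, -1.13 for Ints9, -0.83 for Ints1, -0.71 for Ints8, -0.65 for Sympk, the scaffold of CPSF, and -0.50 for Pabpn1.

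Between the heats 8 genes moved in opposite directions. Clp1 (-1.99), Cstf2t (-1.01), Ints5 (-0.94) and Ints7 (-0.35) were lower in the 42 °C regime. Xrn2 (0.97), Cpsf2 (0.69), Ssu72 (0.64) and Nudt21 (0.61) were higher there. The 2 heats differ in both temperature and duration, which cannot be told apart.

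Over time in H2O2, Cstf3 rose at 2 h and was below control at 7 h, a difference of -1.30. Over time in KCl, Cstf2t (1.61), Ints12 (1.34), Cstf1 (1.02), Cpsf4 (0.90) and Clp1 (0.85) were below control at 2 h and above it at 7 h. Ints2 went from above control to below it (-0.62).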

How the results depend on the processing

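Of 265 RNA changes called in the 11 RNA comparisons, 253 kept their call with DESeq2 and 223 on log2(TPM + 1). With 1 library left out, 951 of 1060 RNA refits, 39 of 68 footprint refits and 44 of 96 efficiency refits kept the call, where a group of 1 library is assumed to vary like the others. On log2(TPM + 1) the sign turned at 42 °C against control for Cpsf1 (-0.09), Sympk (-0.09), Cpsf7 (-0.01), Cstf3 (-0.04), Ssu72 (-0.01), Ints2 (-0.05) and Ints3 (-0.07), and at 42 °C against 44 °C for Fip1l1 (-0.05), Cpsf7 (-0.09), Rbbp6 (-0.24) and Ints1 (-0.03). With older symbols summed, the change of Ints13 from 2 h to 7 h of KCl turned to 0.29.

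The number of members called moved by over 1.5 times as follows, and the cause was not tested. On log2(TPM + 1) it was 14 for H2O2 against KCl at 2 h, and for footprints 0 in early H2O2 and 2 in early KCl. With only the groups compared it was 0 for footprints and 0 for efficiency in early H2O2, and with no filter 0 for that efficiency. With DESeq2 it was 1 for footprints in late H2O2, and for efficiency 6, 10 and 6 in early H2O2, early KCl and late KCl. With limma voom the efficiency counts were 1 and 0 in early and late H2O2 and 2 and 1 in early and late KCl.

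Leaving out each library gave RNA counts of 25 to 28 at 44 °C, 22 to 24 at 42 °C, 26 to 30 between heats, 14 to 18 in early and 14 to 18 in late H2O2, 13 to 18 and 24 to 26 in early and late KCl, 17 to 20 and 27 to 30 over time in H2O2 and KCl, and 15 to 21 and 27 to 28 for H2O2 against KCl, early and late. The 15 came without replicate 1 of early H2O2. Footprint counts were 0 to 2 and 1 to 2 in H2O2 and 2 to 3 and 5 to 8 in KCl. The 1 in late H2O2 came without H2O2 replicate 1 or either control, the 2 in early KCl without control replicate 1 or either KCl library, and the 5 in late KCl without control replicate 1. Efficiency counts were 0 to 7 and 0 to 1 in H2O2 and 2 to 5 and 1 to 3 in KCl, and the 7 came without footprint replicate 2 of early H2O2. The 0 in early H2O2 came without RNA replicate 2 of H2O2, either RNA control or footprint control replicate 2, the 2 in early KCl without RNA control replicate 1, KCl RNA replicate 2 or KCl footprint replicate 2, and the 1 in late KCl without RNA control replicate 1, either KCl RNA library, footprint control replicate 2 or KCl footprint replicate 2.

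With the replicate number as a block, 265 of 265 RNA, 17 of 17 footprint and 11 of 12 efficiency changes kept their call, the exception being Ints9 in early KCl (0.62, adjusted p = 0.0529, edgeR). The member count for H2O2 against KCl at 2 h was 23 with the block. Deviations of same-numbered libraries correlated at 0.04 to 0.11 in heat, and -0.13 to 0.17 in the other RNA libraries. In footprints they correlated at 0.20 to 0.44 among late H2O2, control, early KCl and late KCl and at -0.40 to -0.04 between early H2O2 and those groups. The labels do not say that a number marks a shared culture or day. The shallowest footprint library held 1460751 counts.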
